A study of Mus musculus with 2 samples.

Results

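A group of miRNA genes on mouse chromosome 12 was examined in small RNA libraries of the embryonic neural tube. They lie in the imprinted Dlk1-Dio3 region, upstream of the cluster that runs from Mir379 to Mir410. The group was defined by name as Mir127, Mir136, Mir431, Mir433, Mir434, Mir337, Mir540, Mir665, Mir370 and Mir341, and by no measured value. It was, however, chosen with earlier results of these data known. Gene names came from GENCODE M21, on the mouse assembly GRCm38 (also called mm10). Of these 10 genes, 9 had a row among the 1973 genes of the count tables. Mir136 had none under its identifier (ENSMUSG00000104858), so it has no value here.

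Both libraries come from neural tube, the embryonic tissue that forms brain and spinal cord, taken at day 13.5 from healthy B6NCrl mouse embryos. Each is a pool of male and female embryos and is numbered as biological replicate 1 or 2, from separate tissue samples under 1 shared donor entry. There is 1 condition with no treatment, so no test between conditions exists, and errors are the SD of the 2 libraries. Counts on the strand of the annotated genes totalled 7019469 in replicate 1 and 5738209 in replicate 2. Levels are given as CPM, the counts scaled to a library total of 1000000. A mature miRNA is short enough to be read whole, so CPM was not divided by gene length. A gene's count holds the reads of both arms of its hairpin, and levels of different genes also carry differences in ligation efficiency.

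In the Dlk1-Dio3 region the protein genes Dlk1, Rtl1 and Dio3 are expressed from the paternal chromosome, and the noncoding RNAs Meg3, Rian and Mirg and the miRNAs from the maternal one. Rtl1 is a retrotransposon-derived gene required in the placenta. A maternal transcript runs antisense through it and carries several miRNA hairpins, whose mature products are fully complementary to the Rtl1 mRNA and can direct its cleavage. The mature strands are cut from the hairpin by Drosha and Dicer, and the seed, bases 2 to 8, leads the pairing with ordinary targets.

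The 10 genes form 3 sets by position. Mir337 (chromosome 12, 109585789 to 109585885), Mir540 (109586080 to 109586146) and Mir665 (109586314 to 109586407) stand within 619 bases of each other between Meg3 and Rtl1, in no annotated host gene. Mir431 (109590447 to 109590537), Mir433 (109591715 to 109591838), Mir127 (109592846 to 109592915), Mir434 (109594506 to 109594599) and Mir136 (109595327 to 109595388) lie opposite the coding sequence of Rtl1, which is on the minus strand. Mir341 (109611500 to 109611595) and Mir370 (109618258 to 109618336) lie in introns of the long noncoding RNA Rian. All 10 genes are on the plus strand, and the 9 counted ones span 32.5 kb. The last of them ends 90.7 kb before Mir379.

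The sequences of the 4 counted genes antisense to Rtl1 are shown because they held most of the group's counts. They are RefSeq's (GRCm38.p6), where all 10 members matched, written 5′ to 3′ with the seed in capitals.
miR-127-5p: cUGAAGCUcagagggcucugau
miR-127-3p: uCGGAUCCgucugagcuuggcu
miR-431-5p: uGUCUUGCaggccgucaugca
miR-431-3p: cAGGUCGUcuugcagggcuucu
miR-433-5p: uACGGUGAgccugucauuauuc
miR-433-3p: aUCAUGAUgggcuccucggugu
miR-434-5p: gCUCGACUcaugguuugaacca
miR-434-3p: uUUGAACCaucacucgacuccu

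No seed was shared: the 20 arms of the 10 genes had 20 different seeds. Of these arms, 18 had a seed found in no other mature miRNA of the table, where 72.1% of all 1679 mature names had such a seed. The exceptions were miR-540-3p, which shares its seed with miR-6915-5p, and miR-370-5p, which shares it with miR-1193-3p, a product of the downstream cluster.

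The exact complement of 10 of the 20 arms, both arms of each of the 5 antisense genes, was found in the Rtl1 transcript of GENCODE M21, and each lies in the coding sequence. Sites for the pair of most abundant genes are shown on the Rtl1 strand, 5′ to 3′, with the bases opposite the seed in capitals. Positions count from the first base of the Rtl1 start codon.
Rtl1 coding bases 2495 to 2516, opposite miR-127-3p: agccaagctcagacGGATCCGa
Rtl1 coding bases 2529 to 2550, opposite miR-127-5p: atcagagccctctgAGCTTCAg
Rtl1 coding bases 4925 to 4945, opposite miR-431-5p: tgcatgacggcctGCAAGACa
Rtl1 coding bases 4881 to 4902, opposite miR-431-3p: agaagccctgcaagACGACCTg

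These matches follow from the position of the genes, and Rtl1 mRNA was not measured here. Apart from Rtl1 and the miRNA genes annotated on the other strand of Mir136 and Mir337, no annotated transcript held an exact complement of any of the 20 arms.

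The 9 counted genes were all expressed at moderate to high levels. Each had at least 10 counts in each library, as did 18.8% of all genes of the tables, and the smallest count among them was 1519. Together they held 1.28% of the counts in replicate 1 (89603 counts, Wilson 95% interval 1.27 to 1.28) and 1.28% in replicate 2 (73690 counts, 1.28 to 1.29), averaging 1.28% ± 0.0055 (SD, n = 2). These intervals cover counting error only, since the reads carry no molecular identifiers and may be copies of each other. The median level of the 9 genes was 730 CPM, beside 95.1 CPM over the 371 genes of the tables that reached 10 counts in both libraries. Of the 9, 6 ranked among the 100 highest mean levels, a place that 5.07% of all genes hold.

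**Figure D1:**
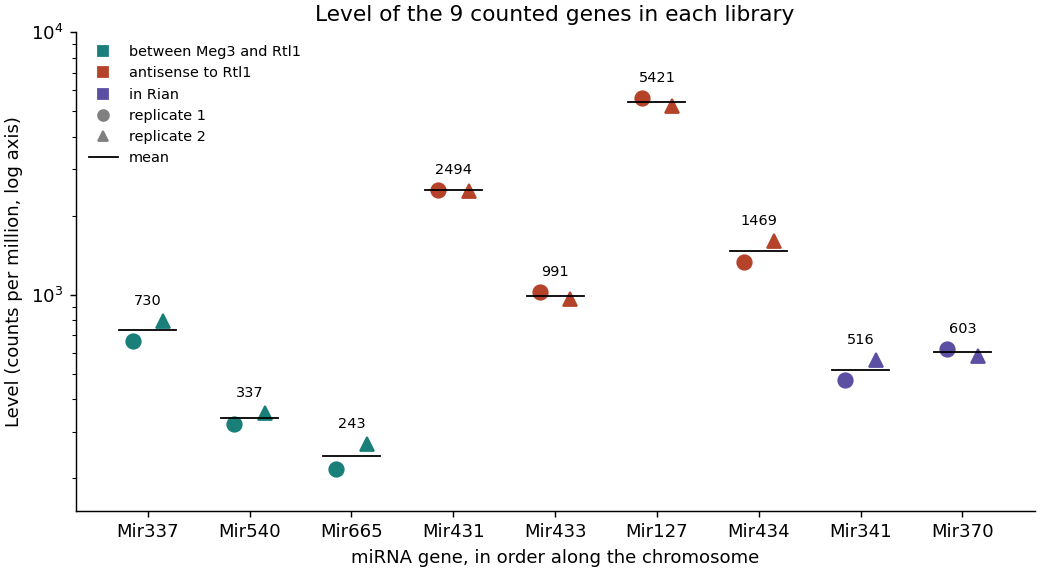
Level of each of the 9 counted genes in CPM (log axis), in order along the chromosome, with replicate 1 as circles, replicate 2 as triangles and the mean as a line, coloured by position. The 4 genes antisense to Rtl1 have the 4 highest means, from 991 to 5421 CPM.

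The antisense Rtl1 genes made up most of the group. Their 4 counted members held 1.05% of the library in replicate 1 and 1.03% in replicate 2 (mean 1.04% ± 0.013, SD, n = 2), which is 82.0% and 80.1% of the group's counts. These were also the 4 highest members. With bulk RNA, fewer cells expressing a miRNA and less of it per cell cannot be told apart.

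Mir127, whose product acts on Rtl1 in the placental vasculature, was the highest, with 39345 counts (5605 CPM) in replicate 1 and 30052 (5237 CPM) in replicate 2; its mean was 5421 ± 260 CPM. It ranked 27 and 29 among all genes and alone held 43.9% and 40.8% of the group's counts. Both libraries stood above every other member.

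Mir431, whose product has been studied in axon growth of sensory neurons, was next at 2508 CPM in replicate 1 and 2480 CPM in replicate 2 (17602 and 14230 counts), averaging 2494 ± 19.6 CPM. It had the steadiest level of the group. Mir127 exceeded it by a log2 ratio of 1.12 ± 0.058, or 2.17-fold.

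Mir434 stood at 1336 CPM in replicate 1 and 1602 CPM in replicate 2 (9376 and 9194 counts), averaging 1469 ± 188 CPM. Mir433 was the lowest counted antisense gene at 1019 and 962 CPM (7156 and 5521 counts), a mean of 991 ± 40.5 CPM. Mir434 was above Mir433 in both libraries, but the gap between them varied, with log2 ratios of 0.39 and 0.74.

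**Figure D2:**
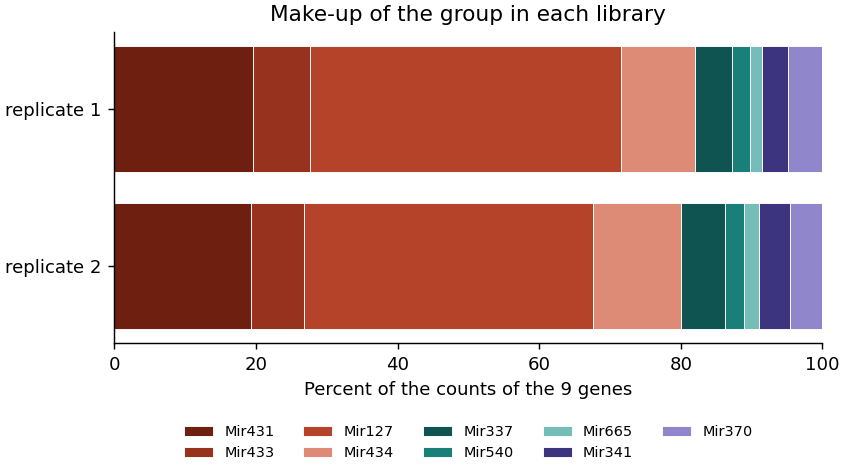
Percent of the counts of the 9 genes held by each gene, one bar for each library, with antisense Rtl1 genes in reds, genes between Meg3 and Rtl1 in greens and Rian genes in purples. The reds fill 82.0% of the bar in replicate 1 and 80.1% in replicate 2, and Mir127 is the widest piece in both.

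The trio between Meg3 and Rtl1 was lower and fell in steps along the chromosome. Together Mir337, Mir540 and Mir665 held 0.120% of the library in replicate 1 and 0.142% in replicate 2 (mean 0.131% ± 0.015). Mir337 led with 667 and 793 CPM (4683 and 4552 counts, mean 730 ± 89.2 CPM). Mir540 followed with 321 and 354 CPM (2251 and 2029 counts, mean 337 ± 23.3 CPM).

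Mir665 was the lowest of all 9 counted genes with 216 and 269 CPM (1519 and 1543 counts, mean 243 ± 37.1 CPM). All 3 were higher in replicate 2, and their libraries did not overlap from one gene to the next. The antisense Rtl1 set exceeded the trio by a log2 ratio of 2.99 ± 0.18, or 7.95-fold.

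The pair in Rian, Mir341 and Mir370, was of similar total. It held 0.109% of the library in replicate 1 and 0.114% in replicate 2 (mean 0.112% ± 0.0037). Mir370 had 622 and 584 CPM (4367 and 3349 counts, mean 603 ± 27.2 CPM), and Mir341 had 471 and 561 CPM (3304 and 3220 counts, mean 516 ± 64.0 CPM). Mir370 was the higher in both libraries, by a log2 ratio of 0.40 in replicate 1 and only 0.057 in replicate 2. The mean ratio of 0.23 ± 0.24 was within its SD. The antisense Rtl1 set exceeded the Rian pair by a log2 ratio of 3.21 ± 0.066, or 9.28-fold, and the trio exceeded the pair by 0.22 ± 0.12.

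From highest to lowest mean the order was Mir127, Mir431, Mir434, Mir433, Mir337, Mir370, Mir341, Mir540 and Mir665, and it was the same in both libraries. In no neighbouring pair of this order did the CPM values of the 2 libraries overlap. The closest neighbours were Mir370 and Mir341, then Mir337 and Mir370 with log2 ratios of 0.10 and 0.44 (mean 0.27 ± 0.24). From Mir127 to Mir665 the levels spanned a log2 ratio of 4.49 ± 0.29, or 22.5-fold.

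Levels changed abruptly between hairpins that lie close together. Mir540 starts 291 bases after Mir337 and had 0.481 of its counts in replicate 1 and 0.446 in replicate 2. Mir665 starts 234 bases further and had 0.675 and 0.760 of the counts of Mir540. Among neighbouring pairs of the 9 counted genes, the largest step was over a longer distance, from Mir665 to Mir431, the first counted gene opposite Rtl1. Mir431 starts 4133 bases downstream and had 11.6 and 9.22 times the counts of Mir665. Steps to genes outside the group, such as Mir1188 (54 and 58 counts) between Mir341 and Mir370, are left out of this ranking.

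Within the antisense set the steps alternated in direction. Mir433 had 0.407 and 0.388 of the counts of Mir431, Mir127 had 5.50 and 5.44 times those of Mir433, and Mir434 had 0.238 and 0.306 of those of Mir127. The ratio of Mir127 to Mir433 was nearly the same in both libraries (log2 2.45 ± 0.010), while that of Mir434 to Mir127 was not (-1.89 ± 0.25). Counts thus did not fall or rise steadily with position.

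Other miRNA genes of the same stretch, from the start of Meg3 to Mir379, were mostly lower. Of 11 such rows, 5 had at least 10 counts in each library and 3 had none in either, and together they held 0.0762% and 0.0760% of the counts. Mir770, inside an annotated exon of Meg3, was the highest at 443 and 388 CPM (mean 416 ± 38.6 CPM), between the levels of Mir341 and Mir540. Mir673 stood at 63.5 ± 2.59 CPM and Mir493 at 39.0 ± 3.44 CPM, both between Meg3 and Mir337.

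Mir1188, in a Rian intron between Mir341 and Mir370, was at 8.90 ± 1.71 CPM (54 and 58 counts). Mir432, which lies between Mir434 and Mir136 opposite Rtl1, had 0 counts in both libraries, which allows up to 0.427 CPM in replicate 1 and 0.523 CPM in replicate 2. Its neighbour Mir434 had 9376 and 9194 counts. The rest, Mir3070a, Mir3070b, Mir882, Mir1906-1 and Gm23912, had 0 to 6 counts. Sequence shared with other genes was not searched for in these rows, so reads that map to several places may be missing from their counts.

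The remaining row carries the reads at the place of Mir136. It has the identifier ENSMUSG00000070129, which M21 names Mir3071 and puts on the minus strand (109595318 to 109595397), over the whole of Mir136 on the plus strand. Its counts were 1455 in replicate 1 and 1483 in replicate 2 (207 and 258 CPM, mean 233 ± 36.2 CPM), and 0 counts on the other strand. This is close to the level of Mir665. The tables were made with annotation M4, not used here, so the strand this row had when it was counted is not known. Whether its reads are miR-136 or miR-3071 therefore cannot be told from the count. The mature products of both genes overlap by 20 bases on opposite strands, as shown for the pair of arms with the longest overlap.
miR-136-5p (plus strand): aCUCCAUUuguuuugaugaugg
miR-3071-3p (minus strand): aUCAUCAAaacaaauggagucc

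Elsewhere in the group the strands were clean. Mir337 is also overlapped by a gene on the other strand, Mir3544, and had 3 opposite-strand counts in each library against 4683 and 4552 on its own strand. The other 8 counted genes had 0 opposite-strand counts. No hairpin of the 10 shares a stretch of 20 bases with another hairpin of the RefSeq table. The longest stretch common to any 2 members was CGUCAUGCAGG, 11 bases in Mir337 and Mir431. Multimapping reads were 28.5% and 31.0% of all reads and, judging by the column totals, were left out of the gene counts. Copies that differ by single bases were not searched for.

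**Figure D3:**
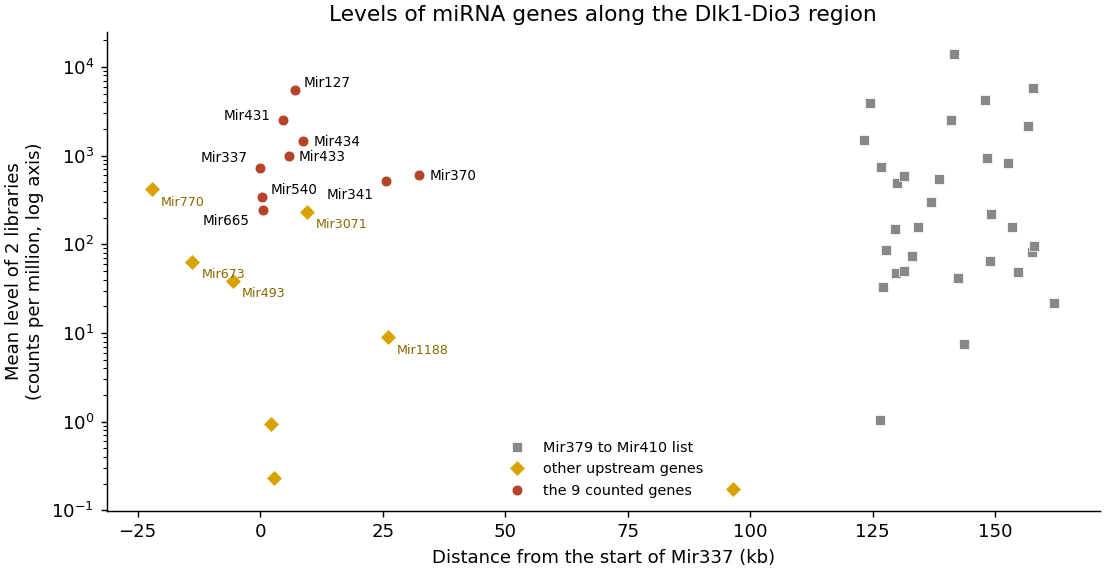
Mean level of the 2 libraries in CPM (log axis) against distance from the start of Mir337 in kb, for the 9 counted genes (circles), the other upstream genes (diamonds) and the Mir379 to Mir410 list (squares); genes with no counts are not drawn. The 9 counted genes lie between 243 and 5421 CPM, and the downstream list holds genes both above and below this range, up to 13973 CPM.

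The downstream cluster from Mir379 to Mir410 was compared as the other large set of miRNAs of this region. Its list had 33 rows in the tables, 30 of them with at least 10 counts in each library, and held 3.93% and 4.05% of the counts (mean 3.99% ± 0.083). The antisense Rtl1 set stood at a log2 ratio of -1.91 to it in replicate 1 and -1.98 in replicate 2 (mean -1.94 ± 0.049), and the cluster was 3.84-fold higher in sum. Much of this sum came from Mir487b, at 13973 ± 175 CPM. Without it the log2 ratio was -1.32.

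Gene by gene the order differed. The median level of the antisense set was 1981 CPM over 4 genes, and that of the 30 cluster genes that reached 10 counts in both libraries was 187 CPM (155 CPM over all 33 rows). The antisense median leaves out Mir432, with 0 counts, and the place of Mir136, where the row named Mir3071 averaged 233 CPM. It would be lower with them. Mir127 was below Mir487b and close to Mir369 (5832 ± 294 CPM), and above Mir382 (4190 ± 244 CPM). In replicate 1, Mir127 and Mir369 had 5605 and 5624 CPM, and in replicate 2 Mir369 was ahead at 6040 against 5237 CPM. Among the genes of the downstream list that have a row, Mir369 and Mir382 come after Mir487b by mean level. Mir299a, Mir380, Mir376a, Mir376b and Mir409 of this cluster had no row. Rows on the other strand overlap 4 of them, and with their opposite-strand counts added to the cluster, the log2 ratio was -2.20. These counts ran from 3325 to 32431 in replicate 1 and from 3198 to 23199 in replicate 2. The cluster medians leave them out and would be higher with them. The largest, on Gm24321, was 32431 and 23199, beside 28201 and 25031 for Mir382, so the place of Mir382 depends on the missing rows.

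The 2 libraries gave similar levels for the whole group, with small shifts in both directions. The difference was computed as log2 of replicate 2 over replicate 1, scaled by TMM, with a pseudocount of 0.5. Among 306 genes whose 2 counts add up to 100 or more, 9.48% were past 0.5 log2 units (3.92% higher and 5.56% lower in replicate 2), and none of the 9 members was. At a limit of 0.25, 34% of those genes and 1 of the 9 members, Mir665, were past it. The median size of the difference was 0.13 for the members and 0.17 for all 306 genes. The 306 genes include some with far fewer counts than any member, such as Mir1188 with 54 and 58, so they are not matched in level.

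The shifts differed in direction within the antisense set and within the Rian pair. Of the antisense set, Mir127 was lower in replicate 2 at -0.13 (exact 95% counting interval -0.15 to -0.11), Mir433 at -0.12 (-0.17 to -0.066) and Mir431 at -0.050 (-0.082 to -0.018). Mir434, 1660 bases downstream of Mir127, was higher at 0.23 (0.19 to 0.27). Mir337 at 0.22 (0.16 to 0.28), Mir540 at 0.11 (0.020 to 0.19) and Mir665 at 0.28 (0.18 to 0.38) were all higher. In Rian, Mir341 was higher at 0.22 (0.15 to 0.29) and Mir370 lower at -0.13 (-0.19 to -0.060).

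Thus 5 members were higher and 4 lower in replicate 2, beside 50.7% of the 306 genes higher. With TMM scaling, the counting interval left out 0 for all 9, and for 62.4% of the 306 genes. For Mir431 this depends on the scaling. Its interval ended at -0.018, and scaling by total counts moved the differences up by a median of 0.033. With 1 library on each side these differences have no replicate check. Mir770 was lower in replicate 2 at -0.22 (-0.30 to -0.14), and the row named Mir3071 higher at 0.28 (0.18 to 0.39).

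**Figure D4:**
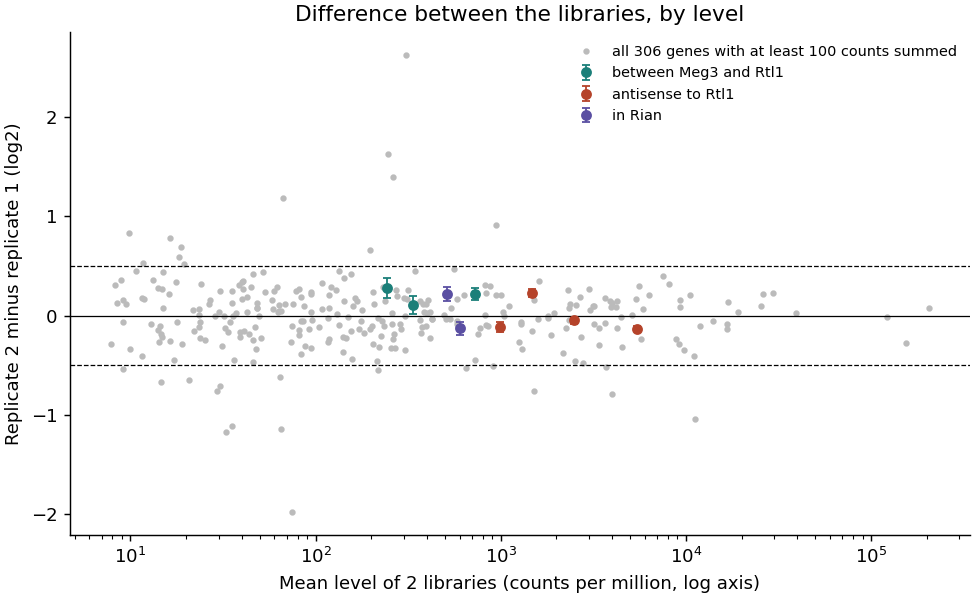
Log2 difference of replicate 2 minus replicate 1 against mean level in CPM (log axis) for 306 genes (grey) and the 9 counted genes, coloured by position, with exact 95% counting intervals as bars; dashed lines mark 0.5 log2 units. All 9 lie between -0.13 and 0.28, inside the dashed lines.

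The tissue label was set against marker miRNAs. Of 10 neural genes, 9 had a row and 6 had at least 10 counts in each library, with a summed level of 7993 CPM in replicate 1 and 8125 CPM in replicate 2. Most of this was Mir137, a neuronal miRNA, at 5096 ± 101 CPM, followed by Mir219a-2, a miRNA of oligodendrocyte differentiation, at 2351 ± 12.9 CPM. Of the miR-9 copies, Mir9-3 had 2615 and 2379 counts and Mir9-2 had 9 and 3. Mir218-2 had 1341 and 995 counts and Mir218-1 had 262 and 134. Their log2 differences of replicate 2 over replicate 1 were -0.17 (-0.29 to -0.054) and -0.71 (-1.02 to -0.40). That of Mir9-3 was 0.12 (0.040 to 0.20). The sum does not show these shifts, since it is mostly Mir137 and Mir219a-2, at 0.0071 and -0.045. The copies of Mir124a had 31 and 15 counts (Mir124a-2), 14 and 8 (Mir124a-1) and 1 and 0 (Mir124a-3). Reads that map to several copies may be among those kept out of the counts.

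Markers of other cells were present as well. Endothelial Mir126a had 17134 and 16019 CPM, the 4 mesenchymal genes summed to 8451 and 10425 CPM, the 3 leukocyte genes to 256 and 237 CPM and the 3 red cell genes to 76.1 and 48.3 CPM. Skeletal muscle genes summed to 118 and 373 CPM, nearly all Mir206, with Mir133a-1 and Mir133a-2 at 0. Reads that map to several copies of Mir133a or Mir1a may also be among those kept out of the counts. The counts of 0 thus do not show that these miRNAs were absent, and the muscle sum may be incomplete. Liver Mir122 had 118 and 30.7 CPM. The mesenchymal and muscle sums were higher and the red cell sum and liver level lower in replicate 2. The lists were not uniform. Mesenchymal Mir143, Mir140 and Mir214 were higher in replicate 2, but Mir145a was lower (79.9 and 67.8 CPM). Of the red cell genes, Mir451a went from 45.2 to 20.4 CPM, while the counting intervals of Mir144 and Mir486 held 0. The part of these other cells in the levels and shifts of the 9 genes was not tested.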

How the data were processed

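MicroRNA-seq counts of 2 neural tube libraries were used. The authors deposited raw read counts for each gene, and the file headers name build mm10 and annotation M4. Which aligner and counter made them is not given in the sources used here. The tables hold 3 count columns. The second, with nearly all gene counts, was taken as the same-strand column, inferred from the values. Read classes that name no gene were left out of the gene totals, and entered only the alternative that gives shares of all reads. Multimapping ones were 28.5% and 31.0% of all reads, unmapped 17.4% and 12.2%, and outside genes 2.95% and 3.10%.

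Identifiers were matched without version to GENCODE M21 (1894 of 1973 matched). CPM, shares with Wilson intervals and ratios came from Python 3.11.15 with scipy 1.17.1. Replicate differences used TMM factors from edgeR 4.0.16 (R 4.3.3), computed from the genes that reached 10 counts in both libraries. Their calculation was tested on simulated data that held counting error only. Such data cannot show how much libraries differ beyond counting error. No p-value was computed. Mature sequences came from RefSeq on GRCm38.p6, and hairpins were folded with RNAfold 2.7.2.

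The members and lists were chosen with earlier results of these data known. Named genes were all members, other upstream genes and the 3 highest of the downstream list among those with a row. The 3 genes nearest to Mir127 in level outside chromosome 12 and the marker genes were also named. Alternatives were unstranded counts, other totals, count minimums, limits, pseudocounts, DESeq2 1.42.0 size factors and each replicate left out.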

Additional observations from a re-analysis of the deposited data

Results flagged for a closer look

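The row named Mir3071, which is no member and overlaps Mir136 on the other strand, held 1455 counts in replicate 1 and 1483 in replicate 2. It was singled out because it carries signal at the place of a member that has no row of its own, above the 3 counts that a count of 0 allows.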

How the results depend on the processing

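The order of size of the 3 sets and the number of genes detected held under every alternative tried. The group's share of 1.28% was 1.26% with unstranded counts, 1.61% without Mir10a, the most abundant gene, in the total, and 0.671% of all reads. The antisense Rtl1 share was 1.02%, 1.30% and 0.543% under the same settings. Without Mir10a in the total and as a share of all reads, the trio between Meg3 and Rtl1 held 0.165% and 0.0688%, and the Rian pair 0.141% and 0.0587%. These changes follow from the total used, and the 9 levels in CPM moved with it in the same way. With the row named Mir3071 added, a setting chosen after seeing the data, the shares were 1.30% for the group and 1.06% for the antisense set. The log2 ratio of the antisense set to the downstream cluster was -1.32 without Mir487b and -2.20 with opposite-strand counts added to the cluster, the latter chosen after seeing the data. With a limit of 0.25 log2 units, 1 of the 9 genes was past it, beside 34% of the 306 genes with at least 100 counts summed. With the limit of 0.5 it was 0 of the 9, beside 9.48%. With DESeq2 size factors, total counts, other pseudocounts or unstranded counts, none of the 9 differences changed sign. Leaving out each replicate in turn gave shares of 1.28% and 1.28% for the group and ratios of -1.98 and -1.91. No paired analysis was possible because there is 1 group. The depth resolves each level, so the spread of 2 libraries limits the precision.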

Other observations

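The hairpins of the group were compared with all 1005 hairpins of the RefSeq table, as a description. Their median GC content was 56.1%, against 51.7% over all, and 8 of the 10 were above the latter. Their median folding energy was -0.47 kcal/mol per base against -0.41 over all, and 8 of the 10 were below the latter. Over the 9 counted genes, which share both libraries, the Spearman rho of mean CPM with hairpin GC content was -0.033. With folding energy per base it was 0.217.

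Some hairpins repeat themselves. A stretch of 13 bases, UGGUUUGAACCAU, occurs more than once in Mir434, and 11 bases, GUCGGUCGGUC, in Mir341. Mir431 repeats 10 bases (GUCUUGCAGG) and Mir540 10 bases (GGCCAAGGGU). A repeat of at least 10 bases was found in 4.08% of all hairpins, and in these 4 of the 10.

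The 3 genes outside chromosome 12 nearest to Mir127, by the distance of log2 CPM over the 2 libraries, were Mir30a (5718 ± 579 CPM, distance 0.13), the neuronal Mir137 (5096 ± 101 CPM, 0.16) and the mesenchymal Mir143 (5406 ± 540 CPM, 0.21).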
